A study of Ictidomys tridecemlineatus with 15 samples.

Results

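Amacrine cells were examined in the developing retina of the 13-lined ground squirrel (13LGS), whose retina is rich in cones, from just before birth to postnatal day 8. The members were all cells that the deposited cell table annotates as amacrine (AC) at embryonic day 26 (E26) and postnatal days 1, 4 and 8 (P1, P4 and P8): 5205 cells, 9.75% of the 53394 cells of the series and part of its 11929 AC cells. Whole retinas were profiled by single-cell RNA sequencing, with a unique molecular identifier (UMI) on every captured mRNA, and all counts here are counts of UMIs. Embryonic retinas came from timed-pregnant captive dams and postnatal retinas from captive-bred litters, and the labels give the age of the retina as the only difference between groups. E26 had 2 libraries (E26a and E26b), P1 had 2 (P1a and P1b), P4 had 1 and P8 had 2 (P8a and P8b), together 21251 cells. The letters follow the library suffix of the cell names and do not correspond to replicate numbers in the labels. The labels list 1 sample at P1 while the cell names hold 2 libraries at that age, and both were used.

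AC cells are inhibitory interneurons of the inner retina. They receive input from bipolar cells, signal to bipolar, ganglion and other AC cells in the inner plexiform layer, and release mostly GABA or glycine. In the order of retinal birth they follow the first ganglion and horizontal cells and largely precede bipolar cells and Müller glia. The transcription factors Tfap2a, Tfap2b and Pax6 and the GABA-synthesizing enzyme Gad1 are common AC markers. The files as held here do not pair gene names with matrix rows, so these markers could not be read, and each gene is named by its matrix row (the top row is row 1).

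The label was checked in 2 ways that need no gene name. First, each held-out cell was matched to the closest of 11 class means, which were made from other cells. Of 2596 held-out AC cells, 95.5% lay nearest the AC profile, from 78.3% in E26a (47 of 60 cells) to 99.4% in P8b, and 0.251% of 7958 held-out cells of other classes did so. The annotation was made on the same cells, so the check is a description. Second, the 20 rows that were richest in AC cells relative to the next class at P12, P17 and P21 were read in the younger libraries. Their summed level in AC cells was 2372 counts per 1e6 UMIs (CPM) in E26a, 4581 in P1a, 3567 in P1b, 3967 in P4, 3923 in P8a and 4557 in P8b. In E26a this was 2.57 times the next class, horizontal cells, and in the 5 postnatal libraries it was 4.45 to 6.61 times the next class. AC cells held the highest level of 9 of the 20 rows in E26a, 15 in P1a and in P1b, 18 in P4, and 20 in P8a and in P8b. E26a thus had the lowest values by both measures. Both references draw mostly on older cells: the 20 rows were chosen at P12 to P21, and 108 of the 5205 AC cells came from E26a. Whether the label itself was less distinct in E26a therefore cannot be told from these values.

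**Figure D1:**
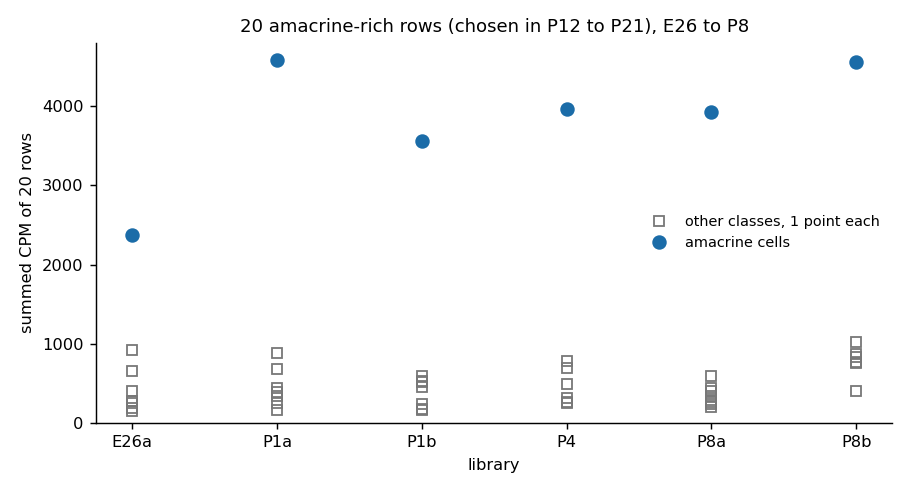
Summed CPM (counts per 1e6 UMIs, linear axis from 0) of the 20 rows richest in AC cells at P12 to P21, in each library with AC cells (horizontal axis). The filled point is the AC cells and each open square 1 other class with at least 10 cells. AC cells stand above every other class in all 6 libraries, with the smallest gap in E26a (2372 against 922 CPM).

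Depth differed between libraries. The median AC cell held 3380 UMIs in E26a, 3398 in P1a, 2870 in P1b, 1572 in P4, 2225 in P8a and 2011 in P8b, below the ganglion cells of the same library in each case (3180 to 10257 UMIs). After each AC cell was thinned to 1000 UMIs, the median number of detected rows lay between 628 and 686 in all 6 libraries. The AC sums over all cells ran from 385803 UMIs in E26a to 3831453 in P1b, with 696113 in P8b, so values from E26a and P8b rest on the fewest molecules. Any pair of libraries shared at most 7 cell barcodes.

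AC cells appeared in number between E26 and P1. No AC cell was annotated in the 5 libraries from E18 to E24, which allows a share of up to 0.0543% (E18) to 0.192% (E21b, the smallest of these libraries), taken as 3 cells of the library. At E26 the 2 libraries differed: E26a held 108 AC cells of 3894 (2.77%, 95% Wilson interval 2.30 to 3.34%) and E26b held 1 of 2148 (0.0466%, 0.00822 to 0.263%). At P1 the shares were 26.5% (25.0 to 28.1%, P1a) and 33.3% (31.8 to 34.8%, P1b). P4 had 32.3% (30.9 to 33.8%), and the 2 P8 libraries were far apart, at 47.5% (45.7 to 49.3%) in P8a and 23.0% (20.9 to 25.3%) in P8b. These intervals cover counting error only. Both E26 libraries lay below all 5 postnatal libraries, while the P8 pair bracketed P1 and P4.

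Over the 7 libraries the AC share was not significantly related to age (Spearman's rho = 0.64, p = 0.143; Pearson's r = 0.70, p = 0.0730; exact two-sided permutation tests). P8b differed from the others in its photoreceptor lineage (precursors, cones and rods), which made up 48.9% of its cells against 4.18 to 12.2% in the other libraries. As a share of cells outside that lineage, AC cells made up 2.96% in E26a, 0.0513% in E26b, 28.1% in P1a, 34.8% in P1b, 36.8% in P4, 51.6% in P8a and 45.0% in P8b. On this scale all libraries of an older time point lay above those of the younger one, and the relation passed the test (rho = 0.97, p = 0.00317; r = 0.88, p = 0.00317; exact permutation tests). Without P8b the share of all cells passed as well (rho = 0.88, p = 0.0333; exact permutation test). With P8a and P8b left out, the 2 libraries whose age was farthest from the median, r was 0.83 (p = 0.133, exact permutation test). Among the 5 postnatal libraries alone r was 0.29 (p = 0.733, exact permutation test), so the relation of the plain share to age rests on the step at birth. Both coefficients were computed for 3 denominators, and with Benjamini-Hochberg adjustment over these 6 exact tests the share of all cells gave p = 0.143 for rho and 0.0876 for r, and the share outside the photoreceptor lineage 0.00952 for each.

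The share of AC cells among the early neuron classes was also higher with age. Ganglion cells send the output of the retina to the brain, and horizontal cells modulate the photoreceptor synapse. Among AC, ganglion and horizontal cells together, AC cells were 5.09% in E26a, 0.0861% in E26b, 53.2% in P1a, 52.1% in P1b, 78.6% in P4, 88.8% in P8a and 60.8% in P8b (rho = 0.92, p = 0.00952; r = 0.81, p = 0.0127; exact permutation tests, adjusted p = 0.0190 for each). There were 0.0903 AC cells per ganglion cell in E26a, 1.39 to 1.56 at P1, 5.77 at P4, 12.3 in P8a and 1.71 in P8b. A share cannot tell a gain of AC cells from a loss of other cells, and P8b lay near the P1 libraries on the ganglion cell ratio.

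**Figure D2:**
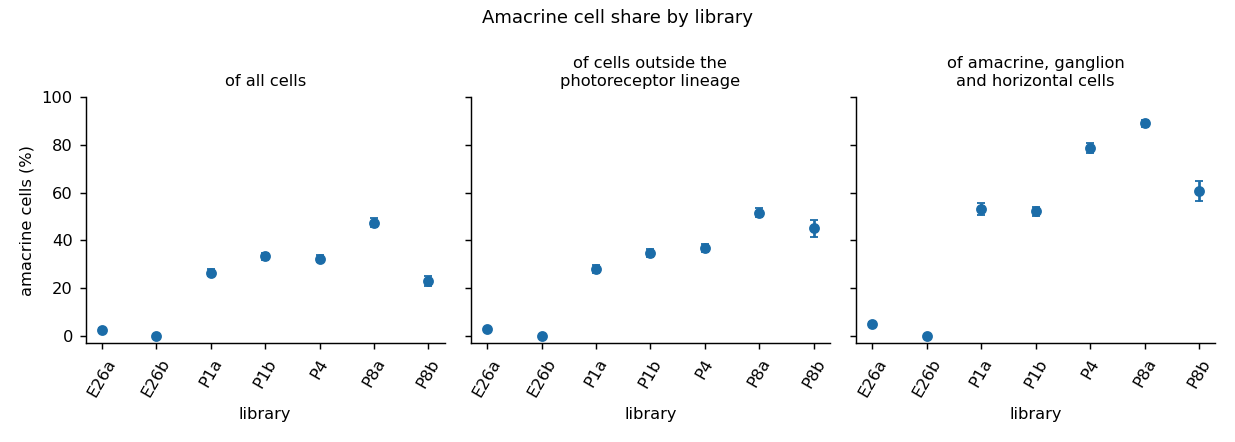
AC cells as a percentage (vertical axis) of all cells, of cells outside the photoreceptor lineage, and of AC, ganglion and horizontal cells, in each of 7 libraries (horizontal axis), with 95% Wilson intervals of counting error. Both E26 libraries are near 0 in each panel, and P8b falls from 45.0% outside the photoreceptor lineage to 23.0% of all cells.

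Horizontal cells were the nearest other class for fewer AC cells in the older libraries than in the younger ones, though they were still the most frequent nearest class in all but P8b. For each held-out AC cell the nearest class other than AC was noted. The class means pooled cells over the libraries. Horizontal cells came mostly from E26 (818 in E26a and 469 in E26b), with 64 in P8a and 19 in P8b. Bipolar cells came nearly all from P8 (444 in P8a and 96 in P8b), with 3 in P4. How far the ages behind each class mean enter the shift was not tested. Horizontal cells were the nearest in 96.7% of AC cells in E26a, 91.3% in P1a and 92.7% in P1b, then in 62.6% in P4, 41.0% in P8a and 41.5% in P8b. Ganglion cells took 17.3% at P4, 35.9% in P8a and 42.1% in P8b, against 4.95% and 4.11% at P1. Bipolar cells, which first had at least 10 cells in the P8 libraries, took 15.8% in P8a and 10.1% in P8b. The correlation over 11668 rows between the summed AC and horizontal cell profiles of the same library was 0.898 in E26a, 0.888 in P1a, 0.897 in P1b, 0.837 in P4, 0.808 in P8a and 0.676 in P8b, where only 19 horizontal cells were present. With ganglion cells it was between 0.831 and 0.869. The highest correlation was with horizontal cells in E26a, P1a and P1b, with photoreceptor precursors in P4 (0.856) and P8b (0.859), and with bipolar cells in P8a (0.886). These correlations run across rows of 1 library and carry no test. The class sums differed in depth: those of horizontal cells held 3172199 UMIs in E26a, 649120 in P1a and 702837 in P1b. They held 209795 in P4, 153646 in P8a and 39032 in P8b. Whether the size of a sum enters the correlations was not tested. The 2 P8 libraries gave like values for the nearest class although their AC shares differed.

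**Figure D3:**
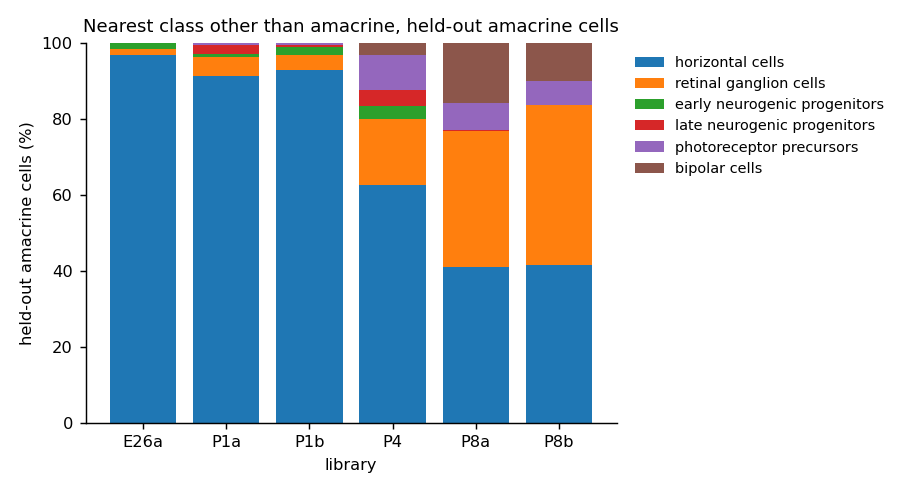
Percentage of held-out AC cells (vertical axis) by the class, other than AC, whose mean profile was nearest, in each library (horizontal axis). Horizontal cells make up over 90% of the bars up to P1 and 41.0% and 41.5% in the P8 libraries.

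Expression within AC cells was compared on UMI sums per library, for the 6 libraries with at least 10 AC cells, so that E26b with its 1 cell is not in these fits. A pair of questions was asked of the same libraries: which rows changed steadily with age in days, and which differed between P8 and P1. In edgeR's quasi-likelihood test, 173 of 11668 rows changed with age at a Benjamini-Hochberg adjusted p below 0.05 (1.48%): 134 rose (1.15%) and 39 fell (0.334%). Between P1 and P8, 112 rows differed (0.96%), with 93 higher at P8 (0.797%) and 19 lower (0.163%). Of the 134 rows that rose, 133 had their P4 level between those of P1 and P8, which was so for 35.5% of all rows tested. Of the same 134 rows, 103 rose at every step between time points, against 1140 of all 11668 rows tested. All 39 rows that fell had P4 between P1 and P8, and 34 fell at every step, against 799 of all 11668 rows tested. These step counts come from the libraries that chose the rows and are a description. Both counts depended on single libraries. Without P8a, 11 rows changed with age, without P8b 63, without P4 91 and without P1b 93, and without both P1 libraries 44 (21 higher, 23 lower). For P8 against P1 the count was 43 without P4, 183 without P8b, 395 without P1a and 570 without P1b. P1 was not compared with E26, since a single E26 library held enough AC cells.

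The rows named are those with the largest fitted change among called rows of at least 100 CPM whose P1 and P8 libraries did not overlap, up to 2 per direction and comparison. For the comparison with ganglion cells below, the ratio of AC to ganglion level had to differ in this way, not the AC level. The same 2 rows led the rise with age and the rise from P1 to P8. Row 1702 is the first of the 20 AC-rich rows. It stood at 5.32 CPM in E26a, 27.2 in P1a, 47.3 in P1b, 136 in P4, 519 in P8a and 664 in P8b. Every library of an older time point lay above every younger one, and AC cells were the highest class in all 6 libraries. It rose by 0.60 per day on the log2 scale (SE 0.05, adjusted p = 0.00139, edgeR) and was 3.98 log2 units higher at P8 than at P1 (SE 0.38, adjusted p = 0.0122), a 15.8-fold difference. In other cells of the same libraries it averaged 1.28 CPM at P1 and 43.7 CPM at P8, the latter mostly from P8b (75.5 CPM). At later ages it reached 638, 641, 1422 and 5390 CPM in P12a, P12b, P17 and P21.

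Row 16096 rose in AC cells from 2.66 CPM in E26a to 6.88 in P1a, 11.3 in P1b, 44.5 in P4, 181 in P8a and 259 in P8b. Its slope was 0.65 log2 units per day (SE 0.05, adjusted p = 0.000833, edgeR) and its P8 level exceeded P1 by 4.56 log2 units (SE 0.41, adjusted p = 0.0122), or 23.7-fold. The libraries again did not overlap between time points, but here AC cells did not lead. Other cells of the same libraries held more in each case (7.54 CPM in E26a and 856 CPM in P8a), and the row belongs to the rows richest in bipolar cells at other ages. In ganglion cells it had 4.56 CPM in E26a, 51.1 in P8a and 121 in P8b. Its age trend in AC cells minus that in ganglion cells was -0.02 log2 units per day (SE 0.05, adjusted p = 0.941), so a difference between the classes was not detected.

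Among called rows of at least 100 CPM that fell with age, row 10491 was the steepest. Without E26a it did not pass the filter on low counts and was not tested. It had 136 CPM in E26a, 19.6 in P1a, 7.36 in P1b, 0.989 in P4, 0.286 in P8a and 0 in P8b, which is 51, 57, 28, 2, 1 and 0 UMIs. The slope of -1.26 log2 units per day (SE 0.13, adjusted p = 0.00268, edgeR) depends on the prior count of the fit, because the P8 libraries held 1 UMI together. Row 10491 also fell in all other cells together, from 29.9 CPM in E26a to 1.53 in P8a and 1.60 in P8b. In ganglion cells it had 33.7 CPM in E26a, 3.20 in P8a and 6.68 in P8b. Its age trend in AC cells minus that in ganglion cells was -0.96 log2 units per day (SE 0.12, adjusted p = 2.39e-06, edgeR). Row 13695 fell from 149 CPM in E26a to 67.8 in P1a, 34.7 in P1b, 17.3 in P4, 5.43 in P8a and 9.15 in P8b, with a slope of -0.48 (SE 0.06, adjusted p = 0.00708, edgeR). No library of an older time point reached a younger one for either row, and the P8 pair of row 13695 differed by less than their distance to P4. Row 13695 was close to particular to the AC label in these libraries, with 0 to 1.27 CPM in all other cells together. Without P8a its slope was -0.47 with an adjusted p of 0.0774.

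Among called rows of at least 100 CPM at P1, the largest falls from P1 to P8 were those of rows 11459 and 11460, which are neighbours in the matrix. Row 11459 had 1491 CPM in E26a, 2387 in P1a, 698 in P1b, 286 in P4, 136 in P8a and 103 in P8b, and row 11460 had 1305, 2741, 804, 339, 179 and 124 CPM. The 2 P1 libraries differed from each other by more than P1b differed from P4. The falls were -3.68 (SE 0.55, adjusted p = 0.0301) and -3.54 log2 units (SE 0.55, adjusted p = 0.0354, edgeR), and the call of row 11460 was lost without P4 (adjusted p = 0.0506). Their size rested on the P1 libraries: the falls were -2.54 and -2.40 without P1a, and -4.32 and -4.17 without P1b. Neither row is confined to AC cells: horizontal cells of E26a held 3627 and 2973 CPM, and Müller glia of P8a 372 and 597 CPM.

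**Figure D4:**
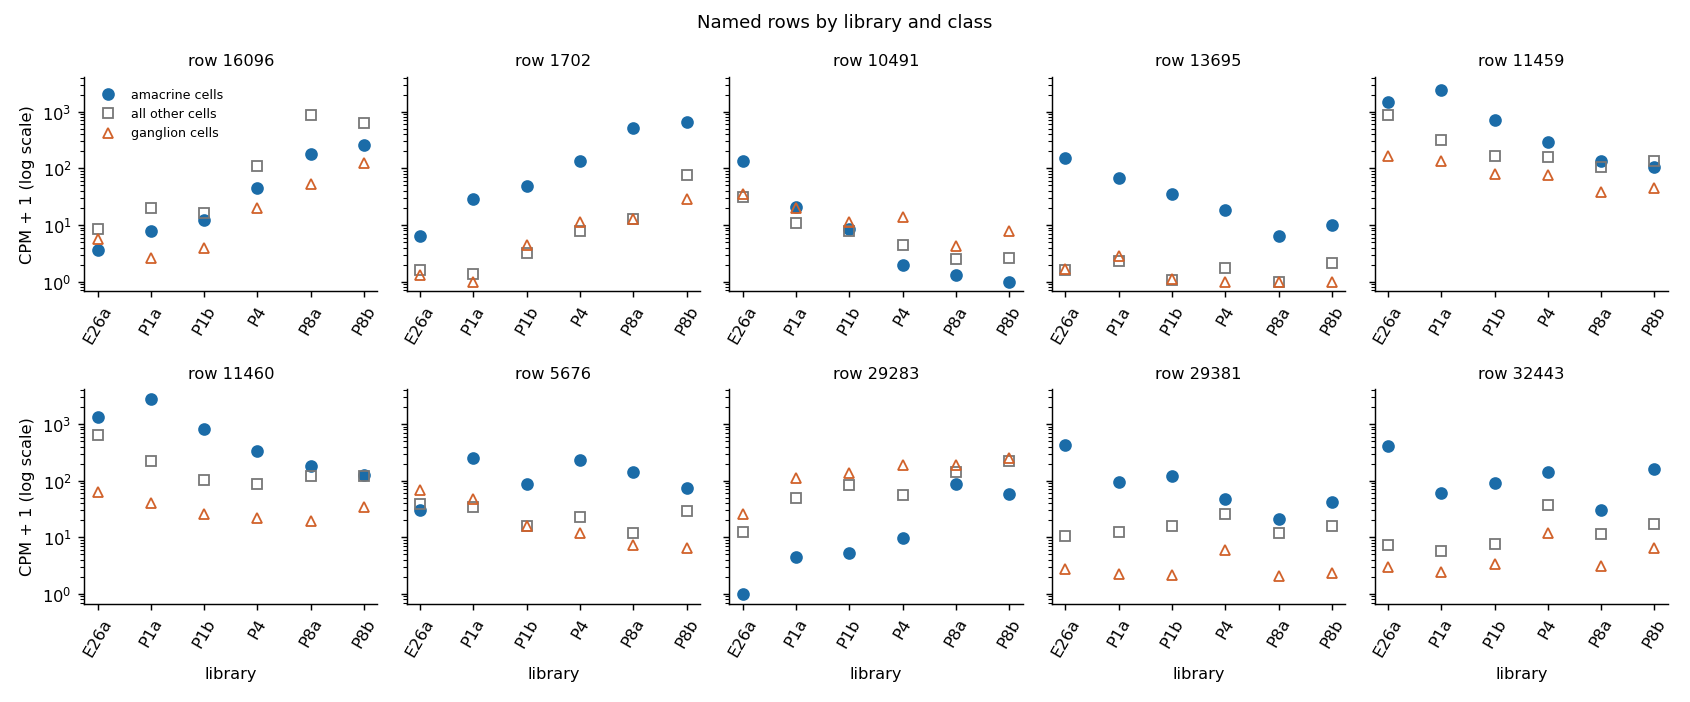
CPM plus 1 on a log axis for each named row by library (horizontal axis), in AC cells (filled circles), all other cells (squares) and ganglion cells (triangles). Row 1702 rises in AC cells from 5.32 to 664 CPM above all other cells, and row 16096 rises below the level of other cells.

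Class-rich rows were then followed in AC cells. For each class the list holds up to 20 rows, chosen at ages outside E26 to P8. The AC list was chosen by a high level at P12 to P21, which favours rows that rise toward those ages, so its direction is no independent evidence. Of the 20 AC-rich rows, 6 rose with age, against 1.15% of all rows, and 15 had a positive slope (median 0.15 log2 units per day, against -0.002 over all rows tested). None fell at an adjusted p below 0.05 in edgeR. At an unadjusted p below 0.05 in edgeR, 10 were higher and 3 lower, against 1499 of all 11668 rows in either direction. DESeq2 called 7 higher and 2 lower (251 higher and 127 lower of all 11668 rows). Between P1 and P8, 4 of the 20 were higher, against 0.797% of all rows, with a median difference of 0.74 log2 units against -0.03 over all rows, and DESeq2 called 6 higher and 3 lower (111 and 35 of all rows). The summed level of the list showed no order from P1 to P8 (3567 to 4581 CPM). It was 4671 to 5629 CPM at P12 and P17 and 10833 CPM at P21.

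Rows rich in other classes differed in direction. These lists too were shaped by the ages at which they were chosen. Outside E26 to P8, bipolar cells were annotated only from P12 on, while horizontal cells were most numerous at E24 (426 and 275 cells). A list chosen at later ages favours rows that rise, and 1 chosen at earlier ages rows that fall. The direction of a list is thus no independent evidence about its class. Over all rows, 1.15% rose and 0.334% fell with age in edgeR, and 251 rose and 127 fell of 11668 in DESeq2, which is the background of the counts for these lists. At an unadjusted p below 0.05 in edgeR, 1499 of the 11668 rows passed for age, in either direction. Of 17 horizontal-rich rows tested, 2 fell with age in edgeR and 5 in DESeq2, 14 had a negative slope, and the median P8 minus P1 difference was -0.73 log2 units. The summed level of all 20 horizontal-rich rows in AC cells was 920 CPM in E26a, 1662 in P1a, 988 in P1b, 932 in P4, 645 in P8a and 468 in P8b. In ganglion cells it was 476 to 646 CPM with no order by age. Of 10 bipolar-rich rows tested, 3 rose in edgeR and 5 in DESeq2, and all 10 had a positive slope (median 0.31 log2 units per day). The summed level of all 20 bipolar-rich rows in AC cells was 104 CPM in E26a, 264 in P1a, 203 in P1b, 495 in P4, 680 in P8a and 717 in P8b. In ganglion cells of the same libraries it went from 374 CPM in E26a to 876 in P8a and 980 in P8b. Bipolar cells made up 0% of the libraries at E26 and P1, 0.0768% at P4, 14.7% in P8a and 7.01% in P8b, and their part in these levels was not tested. Of 9 cone-rich rows 1 rose, of 9 Müller glia rows 2 rose, of 18 late neurogenic rows 1 rose, of 20 early neurogenic rows 1 fell, and of 17 ganglion-rich rows 1 rose and 1 fell. The median slopes of these 5 lists were 0.13, 0.03, -0.01, -0.07 and -0.02 log2 units per day. edgeR called 0 of 17 early primary progenitor, 0 of 20 late primary progenitor and 0 of 18 photoreceptor precursor rows for age, with 2, 4 and 5 rows at an unadjusted p below 0.05 and 1, 0 and 1 called by DESeq2, and their median slopes were -0.06, 0.00 and -0.03. Rods had 1 row tested, which was not called.

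The AC trends were set against those of ganglion cells of the same libraries, in 1 fit with the library as a block. The age trend differed between the classes for 505 of 14002 rows (3.61%), being higher in AC cells for 371 (2.65%) and lower for 134 (0.957%). With horizontal cells in place of ganglion cells the count was 112 of 9537 rows (98 higher, 14 lower), and without P8a it was 238. Ganglion cells were deeper than AC cells in each library, and whether depth enters these differences was not tested. CPM of the 4 rows named from this test are scaled by the TMM factors of its fit. The ganglion cell sums held 939514 UMIs in P8a and 640859 in P8b. Ganglion levels of a few CPM there, as in rows 5676, 29381 and 32443, thus rest on a few UMIs.

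Row 5676 had a trend 0.60 log2 units per day higher in AC than in ganglion cells (SE 0.10, adjusted p = 0.000107, edgeR). In AC cells it had 28.8 CPM in E26a, 260.3 in P1a, 89.1 in P1b, 236 in P4, 146 in P8a and 72.6 in P8b. In ganglion cells it went from 68.2 CPM in E26a through 45.8 and 14.7 at P1 and 11.1 at P4 to 6.39 and 5.34 at P8. Without E26a the difference was 0.31 per day (adjusted p = 0.000359, edgeR) and without P8a 0.85 (adjusted p = 0.000537). AC cells thus had no order by age, while each older ganglion cell value lay below the younger ones. Row 29283 differed by 0.53 per day (SE 0.05, adjusted p = 2.58e-08, edgeR), with 0, 3.57, 4.41, 9.12, 89.4 and 56.8 CPM in AC cells of E26a, P1a, P1b, P4, P8a and P8b, against 25.2, 109, 134, 191, 185 and 246 CPM in ganglion cells. It was lower in AC than in ganglion cells in every library, and its own trend in AC cells was 0.63 per day (SE 0.06, adjusted p = 0.00208).

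Row 29381 had a lower trend in AC than in ganglion cells (-0.47 per day, SE 0.12, adjusted p = 0.0163, edgeR), with 418 CPM in E26a, 97.5 in P1a, 124 in P1b, 47.6 in P4, 21.1 in P8a and 40.9 in P8b, and 1.07 to 5.03 CPM in ganglion cells. Row 32443 also had a lower trend (-0.36 per day, SE 0.08, adjusted p = 0.0101), with 400.1, 61.4, 95.4, 144, 30.6 and 161 CPM in the same order and 1.43 to 11.1 CPM in ganglion cells. For both rows the call rested on E26a: without it the differences were -0.37 (adjusted p = 0.177) and -0.15 (adjusted p = 0.484). Row 29381 also lost its call without P4 (-0.39, adjusted p = 0.0936). In DESeq2 rows 5676, 29381 and 32443 were not called (adjusted p = 0.219, 0.318 and 0.476), and against horizontal cells none of the 4 rows was called by edgeR (adjusted p = 0.327 to 0.983), with the sign of row 29381 reversed (0.16).

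AC cells of different libraries, also of the same age, differed in makeup, so these shares do not separate age from library. The 5204 cells of the 6 libraries were clustered, as a choice made after seeing the data, without the 1745 rows whose level moved with age (unadjusted p below 0.05), and 5 clusters were found. They are numbered only and carry no test. Cluster 1 held 1043 cells (20.04%), with 50 rows over 4-fold above the other AC cells. It made up 78.7% of AC cells in E26a (85 of 108), 29.6% in P1a, 31.7% in P1b, 13.3% in P4, 6.15% in P8a and 18.4% in P8b. With all rows kept, the matching cluster had 1047 cells and 77.8% of E26a. Cluster 4, with 1877 cells, went from 5.56% in E26a to 13.5% in P1a, 38.1% in P1b, 51.8% in P4, 31.1% in P8a and 58.7% in P8b, and 3 of its 10 leading rows were AC-rich rows. Cluster 1 was thus larger than cluster 4 in E26a and P1a, and smaller in the other 4 libraries. Row 1702 was a leading row of cluster 4, with 536 CPM against 46.2 in other AC cells. In cluster 1 its mean was 3.81 CPM at P1 and 132 at P8. With all rows kept, 1 cluster of 424 cells held 1995 CPM of row 1702, against 55.4 in other AC cells. That cluster made up 0% of AC cells in P1a, 0.322% in P1b, 6.65% in P4, 16.7% in P8a and 30.8% in P8b.

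In this clustering the other 3 clusters were tied to single libraries or to rows of other classes. Cluster 2 had 259 cells, of which 235 came from P1a (27.8% of its AC cells) and 0 from P1b, and rows 11459 and 11460 were among its leading rows. With all rows kept, the cluster led by rows 11459 and 11460 had 461 cells, 193 from P1a and 234 from P1b. These were 22.8% and 18.8% of the AC cells of P1a and P1b, so the tie to P1a depended on the rows left out. Cluster 5 had 710 cells, of which 583 came from P8a (40.8% of its AC cells, against 10.2% in P8b). Row 29283, whose level in AC cells rose with age, was among the 10 leading rows of cluster 5, with 161 CPM there against 13.2 CPM in other AC cells, and in cluster 1 its mean was 3.44 CPM at P1 and 7.36 CPM at P8. Cluster 3 had 1315 cells and made up 12.7 to 29.4% of the AC cells of each library. Of its 10 leading rows 7 were in the lists of other classes, and its horizontal-rich rows summed to 2619 CPM, against 379 to 972 CPM in the other clusters. Its AC-rich rows summed to 2332 CPM, against 5123 in cluster 1, 3610 in cluster 2, 5014 in cluster 4 and 2137 in cluster 5.

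**Figure D5:**
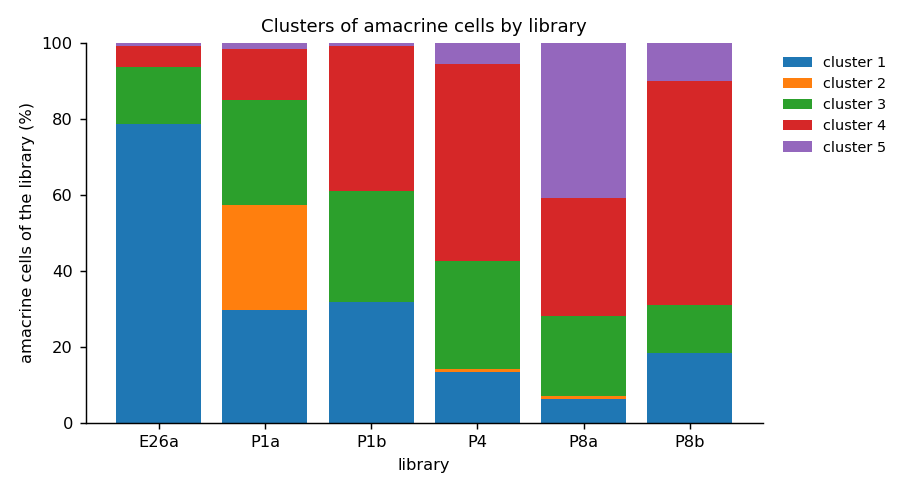
Percentage of the AC cells of each library (vertical axis) in each of 5 clusters made without rows that moved with age, by library (horizontal axis). Cluster 1 makes up 78.7% of E26a and 6.15% of P8a, cluster 2 is nearly all from P1a and cluster 5 mostly from P8a.

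The rows that changed with age were also read inside the 4 clusters with at least 10 cells in every P1 and P8 library. Pooled over libraries and on the log2(CPM + 10) scale, the 134 rising rows had a median P8 minus P1 difference of 1.48 in all AC cells, 0.77 in cluster 1, 0.87 in cluster 3, 1.61 in cluster 4 and 1.81 in cluster 5. Over all rows tested the medians were 0.00, 0.01, -0.01, 0.04 and 0.31. At least 2-fold higher at P8 were 129 of the 134 rows in all AC cells (2.08% of all rows tested), 55 in cluster 1 (2.17% of all rows), 59 in cluster 3 (1.73%), 113 in cluster 4 (3.69%) and 97 in cluster 5 (22.2%). The 39 falling rows had medians of -1.13 in all AC cells, -0.92 in cluster 1, -0.70 in cluster 3, -0.84 in cluster 4 and -1.68 in cluster 5. Cluster 5 had as few as 20530 UMIs in 1 library, and its values are the least certain. The medians had the same sign in each of these clusters, and those of the rising rows were smaller in clusters 1 and 3 than in all AC cells. The cells are those that chose the rows, so these values are a description.

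Rows 29381, 13695 and 32443 were higher in cluster 1 than in AC cells as a whole. Row 29381 went from a mean of 106 CPM at P1 to 30.4 at P8 in all AC cells, and from 301 to 236 CPM within cluster 1. Row 13695 went from 51.2 to 7.29 CPM in all AC cells and from 148 to 56.2 CPM within cluster 1. Row 32443 went from 75.1 (SD 22.5, n = 2) to 94.5 CPM (SD 91.9, n = 2) in all AC cells and from 213 to 608 CPM within cluster 1. Within the cluster, the P8 mean was thus below the P1 mean for the first and second of these and above it for the third, and none of these cluster values was tested.

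From P12 to P21, where 6724 further AC cells were annotated, a separate fit called 24 of 14919 rows for a trend with age (0.161%), with 21 higher (0.141%) and 3 lower (0.0201%). Of the 134 rows that rose between E26 and P8, 93 had a positive slope in these later libraries (69.4%, against 46.9% of all 11541 rows tested in both), and 2 were called, among them row 1702 (0.33 log2 units per day, adjusted p = 0.0472, edgeR). Of the 39 rows that fell, 33 were tested later and 12 of these had a positive slope. The later count went from 0 without P12a (3251 rows at an unadjusted p below 0.05 in edgeR) to 832 without P17.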

How the data were processed

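Per the labels and the study's methods, the authors made 10x Chromium 3' v3.1 libraries, processed reads with Cell Ranger 3.1.0 on the HiC_Itri_2 assembly, aggregated libraries with the aggr pipeline, and assigned a cell type to each Seurat 4.0.4 cluster by its marker genes. The authors deposited UMI counts per gene and cell as 1 matrix of 34181 rows and 53394 cells, not normalized, with a table of cell name, time point and cell type. The gene list holds 30265 names without row numbers. For filters on cells, doublet removal and depth equalization by aggr, details are not given in the sources.

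A library is a time point plus the suffix of the cell name. Age was counted in embryonic days, with postnatal days added to 27. UMI counts were summed per library over AC cells (at least 10 cells) and tested in edgeR 4.0.16 (R 4.3.3) with filterByExpr, TMM scaling, glmQLFit and glmQLFTest. Rows with an adjusted p (Benjamini-Hochberg) below 0.05 were called. The SE is the size of the log2 change divided by the square root of F. P8 against P1 used time point as a factor, with 2 residual degrees of freedom. The study tested single cells, and sums were used because cells are not replicates. Nothing states that libraries of a time point came from separate animals, so p-values measure the spread between libraries. CPM are UMIs per 1e6 UMIs, with TMM-scaled sums in the fits of AC cells. The edgeR scripts were tested on simulated data. No doublets were called, and the fits were repeated without AC cells above 2 times the median UMI count of their library. Class-rich lists hold up to 20 rows of at least 100 CPM with the largest ratio to the next class (CPM plus 10), chosen at P12 to P21 for AC cells and outside E26 to P8 for other classes. Clusters were made in scanpy 1.11.5 (2000 variable rows, 30 components, 15 neighbours, Leiden resolution 0.5). Named rows are the 2 of largest fitted change per direction and comparison among called rows of at least 100 CPM at the higher time point or class whose P1 and P8 libraries did not overlap. Against ganglion cells, this overlap was judged on the ratio of AC to ganglion CPM. The members, lists and tests were chosen with earlier results of these data known.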

Additional observations from a re-analysis of the deposited data

Results flagged for a closer look

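The difference of age trends between AC and ganglion cells of the same libraries was tested as an interaction of class and age, and passed for 505 rows (edgeR, adjusted p below 0.05). The 4 rows named from it differed by 0.60 (row 5676), 0.53 (row 29283), -0.47 (row 29381) and -0.36 log2 units per day (row 32443). With DESeq2 218 rows were called, and among the 4 named rows only row 29283 was. Groups of 1 or 2 libraries are too small to look for single outlying libraries within a time point.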

How the results depend on the processing

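No paired analysis was possible because the library suffixes do not show the replicate numbers that would pair libraries of different ages, and the only block used is the library, between classes of 1 library. The comparison of P1 with E26 and its alternatives were not run, since 1 E26 library held at least 10 AC cells. The relation of AC share to age (rho 0.64) passed with cells outside the photoreceptor lineage (0.97) and among AC, ganglion and horizontal cells (0.92), and ran from 0.44 to 0.88 when 1 library was left out, passing only without P8b. Time point means gave rho = 1 over 4 values (exact p = 0.0833, the smallest they allow), and without both P1 libraries rho was 0.79 (exact p = 0.2). The count of 173 rows changing with age became 378 with DESeq2 (251 higher), 698 with no filter on low counts, 81 with sums thinned to the smallest, 44 without both P1 libraries, 113 with postnatal libraries only, and 11 (without P8a) to 257 (without P1a) with 1 library left out. The 112 rows of P8 against P1 became 608 with no filter, 46 with thinned sums, and 43 to 570 with 1 library left out. The 505 rows of AC against ganglion cells became 112 with horizontal cells, 218 with DESeq2, and 238 (without P8a) to 610 (without E26a) with 1 library left out, including 277 without P1a. The 24 rows of P12 to P21 became 0 to 832 with 1 library left out, an alternative chosen after seeing the data. The cause of these shifts was not tested, apart from fewer rows tested with thinned sums (5683). A library left alone at its time point was assumed to vary like the others. Of 144 alternative values of the named rows, 130 kept direction and call, 13 kept direction only, and 1 reversed: row 29381, at 0.16 log2 units per day with horizontal cells in place of ganglion cells (adjusted p = 0.918). Row 10491 had 10 of these values, against 14 for the trend of row 13695. It did not pass the filter with thinned sums, without E26a, with postnatal libraries only or without both P1 libraries. Size factors in place of TMM gave 176, 112 and 492 rows. The E26 values rest on 108 cells of 1 library, so levels of a few CPM there are 1 or 2 UMIs.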
